A study of Rattus norvegicus albus with 14 samples.

Results

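The genes described here are 45 genes of the interferon response, from the interferon receptor to the antiviral effectors and the feedback genes. They were found by their gene symbol in the deposited count tables, where 44 of the 45 were matched, out of 32545 genes in all. Xaf1 was the gene without a match and was not analysed here. A filter on low counts left 15655 genes for testing, among them 42 of the 44, and the 2 that did not pass were Zbp1 and Oas3.

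The RNA came from cultured ventricular myocytes of neonatal rats, which are heart muscle cells isolated at 1 day of age from Sprague-Dawley rats. The isolated cells were pooled, and preplating, a step in which fibroblasts attach and are left behind, is stated to give over 98% myocytes. After a night in minimal medium the cells received an insulin, transferrin and selenium medium, with 1% DMSO as the vehicle in every group. The groups were DMSO for 0.5 h (1 library), and 10 µmol/L rosiglitazone, a synthetic agonist of the nuclear receptor PPARγ, for 0.5, 24 and 48 h (2 libraries each). Whether the 2 libraries of a group are separate cultures is not stated, and the error behind each p-value is therefore library-to-library spread that may be technical. Vehicle at 24 and 48 h was not analysed here, and in every comparison between times the drug and the hours in culture cannot be told apart.

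Type I interferons bind the receptor pair IFNAR1 and IFNAR2, and the kinases JAK1 and TYK2 then phosphorylate STAT2 at the receptor. STAT2 and IRF9 act in a complex that switches on a large set of interferon-stimulated genes, most of them effectors against viruses. Some effector genes can also be switched on by IRF3, or by other factors, without any interferon being made. IRF7 is itself induced and amplifies the response, and USP18 and SOCS1 damp it. Heart muscle cells carry this system and use it in viral myocarditis.

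Over the time course the interferon response genes did not move as a block. Rsad2, Ifit3, Oasl, Isg15 and Herc6 rose from 0.5 to 48 h of rosiglitazone, and Mx2 and Parp9 fell. That is 5 of 42 members tested called higher, against 1.97% of all genes tested, and 2 of 42 called lower, against 4.62% (edgeR's quasi-likelihood test, Benjamini-Hochberg adjusted p under 0.05 over all genes tested). The background share depended on the fit. DESeq2 as an alternative test called 5 higher, beside 5.43% of all genes, and 7 lower, beside 10.7%. A fit of only the groups compared called 5 higher, beside 7.62%, and 6 lower, beside 12%. Between 24 and 48 h no gene passed that threshold in either direction, so the members called higher or lower were 0 of 42 beside a background of 0%. Values below are scaled CPM (the counts of a gene relative to the counts of its library), given for each library, and log2 fold changes carry their standard error (SE) with 2 libraries in each rosiglitazone group.

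Rsad2 encodes viperin, a radical SAM enzyme that turns CTP into a chain-terminating nucleotide. It stood at 4.91 CPM in the DMSO library, at 4.51 and 6.94 CPM after 0.5 h of rosiglitazone, at 14.7 and 41.2 CPM after 24 h, and at 982 and 547 CPM after 48 h. The groups did not overlap at any step from 0.5 to 24 to 48 h. The mean at 48 h was 134-fold that at 0.5 h (log2 fold change 7.06 ± 0.68 SE, edgeR adjusted p = 0.0065). From 24 to 48 h alone the mean was 27.4-fold higher (log2 fold change 4.77 ± 0.61 SE), with an unadjusted edgeR p of 7.1e-05 and an adjusted p of 0.16. Rsad2 took 0.31 to 0.49% of the reads of all 44 members in the 0.5 h libraries, DMSO included, 1.00 and 2.89% at 24 h, and 40.0 and 29.2% at 48 h.

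Ifit3 encodes an adaptor of the IFIT proteins, which bind viral RNA. Its level was 2.86 CPM with DMSO, 2.68 and 5.63 CPM at 0.5 h, 8.04 and 11.9 CPM at 24 h, and 130 and 122 CPM at 48 h. The 48 h libraries were nearly equal to each other and above every other library. Ifit3 rose 30.4-fold from 0.5 to 48 h (log2 fold change 4.92 ± 0.48 SE, edgeR adjusted p = 0.0065), and its mean was 12.6-fold higher at 48 h than at 24 h (3.66 ± 0.45 SE, adjusted p = 0.16). In the authors' deposited table of 48 h against 24 h, Ifit3 had the smallest adjusted p of 14905 genes (log2 fold change 3.52).

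Oasl encodes an OAS-like protein that lacks the synthetase activity of its relatives in human and enhances RIG-I signalling there. It was read at 10.6 CPM with DMSO, 5.74 and 8.47 CPM at 0.5 h, 24.8 and 16.5 CPM at 24 h, and 78.1 and 59.0 CPM at 48 h. Isg15 encodes a ubiquitin-like modifier, and measured 5.55 CPM with DMSO, 6.23 and 5.67 CPM at 0.5 h, 21.1 and 18.7 CPM at 24 h, and 44.3 and 68.6 CPM at 48 h. For both genes the 3 rosiglitazone groups were separate and in the order of time. Oasl rose 9.65-fold from 0.5 to 48 h (log2 fold change 3.27 ± 0.40 SE, edgeR adjusted p = 0.011) and Isg15 rose 9.48-fold (3.24 ± 0.38 SE, adjusted p = 0.010). Herc6, in mouse the main ligase that attaches ISG15 to proteins, went from 3.31 and 2.25 CPM at 0.5 h to 5.64 and 7.65 CPM at 24 h and 14.4 and 12.9 CPM at 48 h, with 4.63 CPM in the DMSO library. Herc6 rose 4.91-fold from 0.5 to 48 h (log2 fold change 2.29 ± 0.53 SE, edgeR adjusted p = 0.047).

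Mx2 is a dynamin-like GTPase gene; rodent Mx proteins block the replication of several RNA viruses. Its level was 40.8 CPM with DMSO, 14.7 and 48.0 CPM at 0.5 h, 35.8 and 37.7 CPM at 24 h, and 3.11 and 6.60 CPM at 48 h. The 48 h libraries lay below all 5 others, while the 0.5 h libraries were far apart. Mx2 fell from 0.5 to 48 h to a mean 6.46-fold lower (log2 fold change -2.71 ± 0.63 SE, edgeR adjusted p = 0.0485). Parp9, whose protein works with the ubiquitin ligase DTX3L, measured 44.6 CPM with DMSO, 37.6 and 41.5 CPM at 0.5 h, 42.4 and 33.2 CPM at 24 h, and 17.1 and 15.7 CPM at 48 h. Parp9 fell by 1.27 ± 0.30 SE on the log2 scale from 0.5 to 48 h (edgeR adjusted p = 0.04996), which is at the threshold itself.

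These 7 calls rest on few libraries. Mx2 kept its call in no fit with 1 library left out. Its log2 fold change in those fits ran from -3.344 to -1.615. Without the first 48 h library the calls of all 7 were lost, and without the first 0.5 h library those other than Ifit3. In both fits, which leave 1 library in a compared group, calls over all genes were few too. No fold change of the 7 turned its direction. The count of members called higher was 2 without the second 0.5 h library (background 0.104% of all genes) and 4 without the second 48 h library (background 0.611%). The count called lower was 0 without any of the 0.5 or 48 h libraries, where the background of genes called lower ran from 0.00644% to 1.94%, and 0 without the DMSO library, beside 3.84%. It was 5 without the first 24 h library, beside 10.7% of all genes, and 5 without the second, beside 11.4%. The adjusted p of Ifit3 without the first 48 h library was 0.064 and that of Rsad2 was 0.058.

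**Figure D1:**
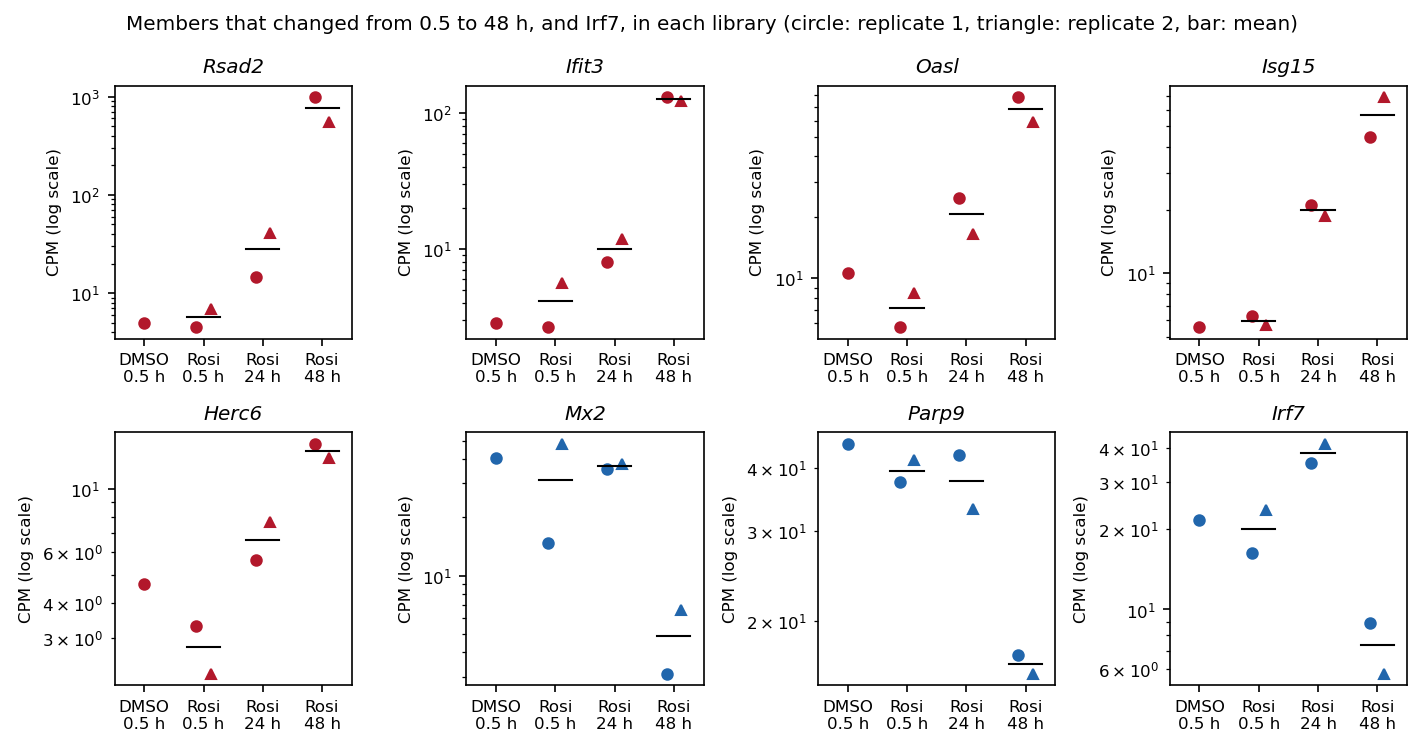
Level of the 7 members that changed from 0.5 to 48 h of rosiglitazone, and of Irf7, in each of the 7 libraries, in CPM on a log axis with its own range in each panel; bars are means of the 2 libraries of a group. Rsad2, Ifit3, Oasl, Isg15 and Herc6 (red) are higher at 24 h than at 0.5 h and highest at 48 h, whereas Mx2, Parp9 and Irf7 (blue) are lowest at 48 h, and Irf7 is highest at 24 h.

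The step from 24 to 48 h divided the members. Of the 42 tested, 13 had a positive and 29 a negative log2 fold change, with a median of -0.47 beside -0.01 for all genes tested. Both 48 h libraries lay above both 24 h libraries for 8 members (19.0%, against 14.5% of all genes tested) and below both for 19 members (45.2%, against 14.6%). At an unadjusted edgeR p under 0.05, 5 members were higher (Ifnar2, Oasl, Ifit3, Rsad2 and Isg15; background 2.8%) and 14 were lower (background 5.34%). DESeq2, run as an alternative test, called 4 members higher (Rsad2, Ifit3, Oasl and Isg15) and 5 lower (Irf7, Mx2, Bst2, Parp9 and Ifi44) among 492 genes. Without the second 24 h library edgeR called 2 members higher (Rsad2 and Ifit3) and 3 lower (Irf7, Parp9 and Ifi44), beside 0.852% and 2.46% of all genes. The authors' deposited table, which lists each library as 2 splits, called 7 members higher and 16 lower of 41 with an adjusted p (56.1%, against 16.5% of all genes), and how the splits entered that test is not given in the sources used here.

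**Figure D2:**
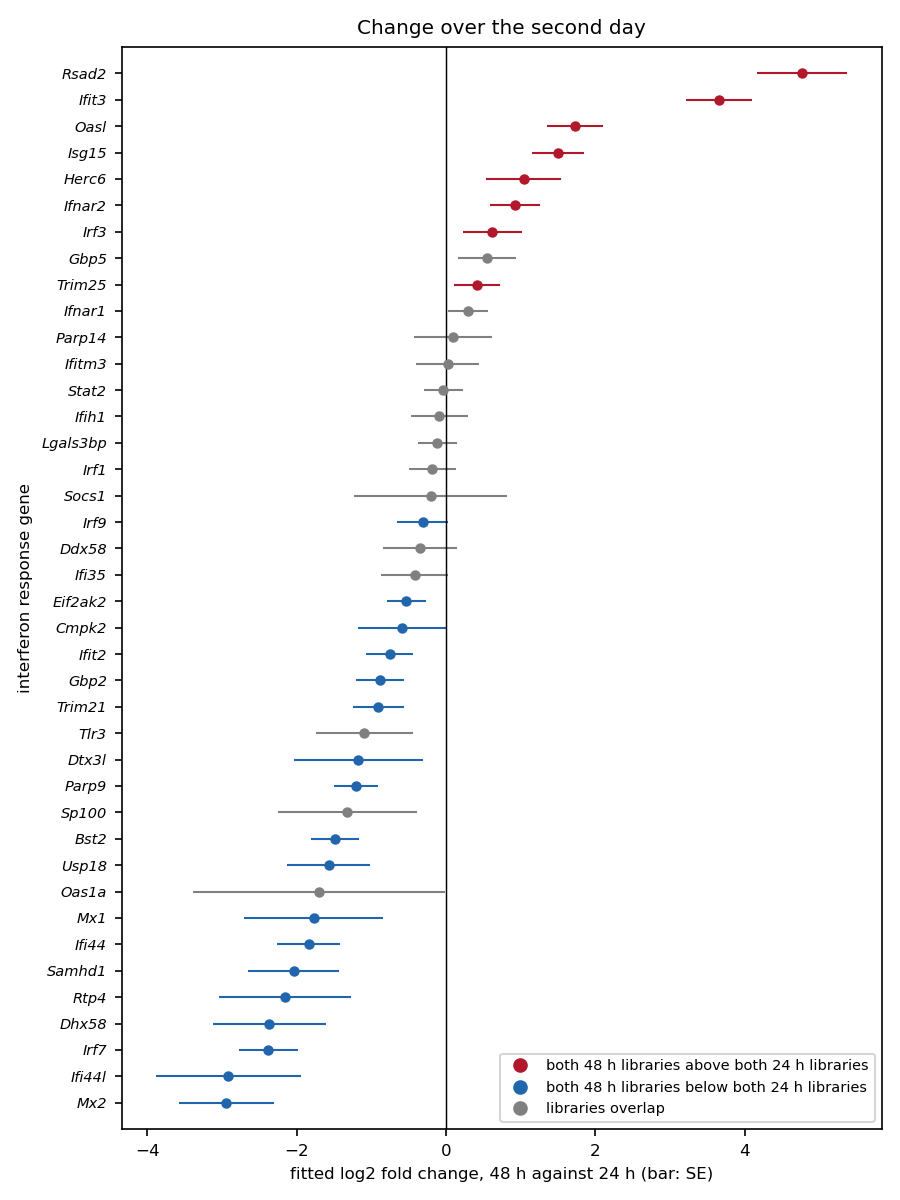
Fitted log2 fold change of 48 h against 24 h of rosiglitazone for the members tested, with bars of 1 standard error; Oas2, with 0 counts in both 48 h libraries, and Ifit1, with at most 12 reads in any library, are left out. Red and blue mark members whose 2 libraries at 48 h lie wholly above or below the 2 at 24 h, and none passed the adjusted threshold in edgeR; Rsad2 and Ifit3 stand apart on the right, and Mx2 and Ifi44l lie farthest to the left.

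Transcripts of the interferons themselves were at or near 0. Of 9 ligand genes measured (Ifnb1, Ifna2, Ifna4, Ifna5, Ifne, Ifnk, Ifng, Ifnl1 and Ifnl3), Ifna4 had 6 reads in the first 48 h library, Ifne had 6 reads in the first 0.5 h library and 4 in the first 48 h library, and every other value was 0. A count of 0 allows up to 3 counts, or 0.106 to 0.279 CPM depending on the library, and this limit covers counting error only. The receptor genes were readily measured. Ifnar1 was read at 159 CPM with DMSO, 124 and 135 CPM at 0.5 h, 131 and 179 CPM at 24 h, and 205 and 175 CPM at 48 h, and from 24 to 48 h its libraries overlapped. Ifnar2 was read at 38.3 CPM with DMSO, 29.4 and 24.6 CPM at 0.5 h, 19.6 and 22.8 CPM at 24 h, and 48.8 and 31.7 CPM at 48 h, with a log2 fold change of 0.93 ± 0.34 SE from 24 to 48 h (edgeR adjusted p = 0.51).

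Among the transcription factors Irf7, the amplifier of the response, had the widest swing. It was read at 21.6 CPM with DMSO, 16.3 and 23.6 CPM at 0.5 h, 35.4 and 41.5 CPM at 24 h, and 8.93 and 5.77 CPM at 48 h. Its 24 h libraries were the highest of all and its 48 h libraries the lowest. The mean at 48 h was 5.23-fold below that at 24 h (log2 fold change -2.38 ± 0.40 SE, edgeR unadjusted p = 0.00043, adjusted p = 0.27). Stat2 and Irf9 encode parts of the interferon-activated complex. Stat2 measured 74.7 CPM with DMSO, 62.1 and 70.6 CPM at 0.5 h, 88.1 and 112 CPM at 24 h, and 103 and 91.9 CPM at 48 h, so that both later times lay above 0.5 h and overlapped each other. Irf9 measured 27.6 CPM with DMSO, 26.1 and 32.3 CPM at 0.5 h, 22.7 and 22.3 CPM at 24 h, and 21.3 and 14.9 CPM at 48 h. Their log2 fold changes from 24 to 48 h were -0.03 ± 0.26 SE for Stat2 and -0.31 ± 0.34 SE for Irf9. Irf3, a factor held in the cytoplasm until a sensor is triggered, measured 25.3 CPM with DMSO, 46.7 and 22.3 CPM at 0.5 h, 25.7 and 30.3 CPM at 24 h, and 43.0 and 43.1 CPM at 48 h. Irf1, which can induce antiviral genes on its own, was 18.8 CPM with DMSO, 29.0 and 28.4 CPM at 0.5 h, 43.8 and 32.8 CPM at 24 h, and 29.7 and 38.0 CPM at 48 h.

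All 4 RNA sensors tested had a negative log2 fold change from 24 to 48 h, none passed the adjusted test, and only that of Dhx58 kept its sign whichever library was left out (Tlr3 reached 0.19, Ddx58 0.022 and Ifih1 0.34). Dhx58, encoding LGP2, a regulator of the RNA sensors RIG-I and MDA5, was highest at 24 h, like Irf7, with 9.33 CPM with DMSO, 3.87 and 9.27 CPM at 0.5 h, 14.3 and 14.4 CPM at 24 h, and 4.32 and 1.12 CPM at 48 h (48 h against 24 h, log2 fold change -2.37 ± 0.75 SE, edgeR adjusted p = 0.42). Tlr3, a receptor for double-stranded RNA in endosomes, measured 17.9 and 16.6 CPM at 0.5 h, 14.1 and 3.66 CPM at 24 h, and 3.44 and 4.93 CPM at 48 h. The 24 h libraries of Tlr3 were thus far apart. Ddx58, the gene of RIG-I, had its 48 h libraries below both 0.5 h libraries, at 8.13 and 4.37 CPM against 12.6 and 18.2 CPM, while Ifih1, the gene of MDA5, ranged from 20.3 to 35.3 CPM with overlap between all 3 times. Zbp1, a sensor of Z-form nucleic acids, had 5 reads in 1 library and 0 in the other 6.

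The effectors against double-stranded RNA split within their family. Oasl rose, as given above, whereas the genes of the catalytic synthetases had few reads. Oas1a was read at 1.59 and 6.03 CPM at 0.5 h, 5.11 and 2.41 CPM at 24 h, and 0 and 2.42 CPM at 48 h. Oas2 was read at 0.848 CPM with DMSO, 0.564 and 1.49 CPM at 0.5 h, and 0.568 and 0.754 CPM at 24 h (13 and 20 reads). It had 0 reads in both 48 h libraries, which makes it at least 2.37-fold lower at 48 h than at 24 h, taking 3 counts in the shallower 48 h library as the floor (edgeR adjusted p = 0.53). Oas3 had 8 reads with DMSO, 7 and 5 reads at 0.5 h and 0 afterwards. Eif2ak2, which encodes PKR, the kinase that stops translation on double-stranded RNA, was 76.9 and 92.3 CPM at 24 h and 63.0 and 54.0 CPM at 48 h (log2 fold change -0.53 ± 0.26 SE).

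The other IFIT genes did not follow Ifit3. Ifit2 was read at 108 CPM with DMSO, 97.8 and 73.4 CPM at 0.5 h, 55.9 and 73.3 CPM at 24 h, and 32.0 and 45.0 CPM at 48 h. Its 48 h libraries were the lowest (48 h against 0.5 h, log2 fold change -1.16 ± 0.32 SE, edgeR adjusted p = 0.076). Ifit1 was barely present, with 11 and 12 reads at 0.5 h, 0 and 2 reads at 24 h, 5 and 0 reads at 48 h and 0 with DMSO, and no fold is given for it. Samhd1, which encodes an enzyme that depletes deoxynucleotides, measured 12.3 CPM with DMSO, 7.50 and 10.1 CPM at 0.5 h, 8.00 and 3.92 CPM at 24 h, and 1.24 and 1.67 CPM at 48 h. Its mean at 48 h was 6.05-fold below that at 0.5 h, and the edgeR adjusted p of 0.052 missed the threshold.

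The GTPases and the restriction factors were mixed. Mx1 was read at 12.4 CPM with DMSO, 3.59 and 10.6 CPM at 0.5 h, 6.29 and 6.86 CPM at 24 h, and 0.549 and 3.44 CPM at 48 h. Gbp2, a guanylate-binding protein gene, was 33.4 and 43.9 CPM at 24 h and 23.2 and 18.8 CPM at 48 h, and its relative Gbp5 was 21.5 CPM with DMSO, 18.9 and 19.3 CPM at 0.5 h, 23.6 and 18.2 CPM at 24 h and 39.9 and 21.1 CPM at 48 h. Bst2, the gene of tetherin, which holds budding virus at the cell surface, measured 19.9 and 25.0 CPM at 0.5 h, 48.0 and 54.0 CPM at 24 h, and 15.5 and 21.0 CPM at 48 h. As with Irf7, its 24 h libraries were the highest of the 7 (48 h against 24 h, log2 fold change -1.49 ± 0.32 SE, edgeR adjusted p = 0.28). Ifitm3, which blocks virus entry at endosomes, ranged from 88.0 to 273 CPM, and the lowest value was the second 24 h library.

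Within the ISG15 system the modifier and its ligase gene rose, as above, while the gene of the enzyme that removes ISG15 did not pass the test. Usp18 was read at 11.0 CPM with DMSO, 4.16 and 6.51 CPM at 0.5 h, 9.01 and 8.86 CPM at 24 h, and 2.42 and 3.63 CPM at 48 h. Its libraries at 48 h were the lowest of the 7 (48 h against 24 h, log2 fold change -1.57 ± 0.55 SE, edgeR adjusted p = 0.49). Socs1, the inhibitor of JAK kinases, stayed between 0.493 and 4.28 CPM with overlap between the times.

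Parp9 fell, and the other enzymes of ubiquitin and ADP-ribose transfer did not pass the test. Trim21, an antibody receptor inside the cell, was 19.8 and 20.5 CPM at 24 h and 9.77 and 11.7 CPM at 48 h. Trim25, a ligase that activates RIG-I, was 39.2 CPM with DMSO, 31.3 and 28.5 CPM at 0.5 h, 21.2 and 22.2 CPM at 24 h and 33.2 and 24.5 CPM at 48 h. Dtx3l was read at 8.60 and 10.4 CPM at 0.5 h, 6.12 and 6.71 CPM at 24 h, and 4.98 and 0.558 CPM at 48 h. Parp14 was read at 62.4 CPM with DMSO and 48.2 and 43.1 CPM at 0.5 h; its 24 h libraries were far apart, at 13.7 and 41.5 CPM, with the 48 h libraries, at 36.7 and 22.2 CPM, between them.

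Of the 6 remaining members, each had a negative log2 fold change from 24 to 48 h, which turned for Ifi35 (to 0.27) and Lgals3bp (to 0.045) when 1 library was left out. Ifi44 measured 26.3 CPM with DMSO, 20.8 and 22.7 CPM at 0.5 h, 65.1 and 30.3 CPM at 24 h, and 12.8 and 13.9 CPM at 48 h (48 h against 24 h, log2 fold change -1.84 ± 0.42 SE, edgeR adjusted p = 0.28). Ifi44l, its neighbour, measured 4.45 CPM with DMSO, 1.87 and 1.82 CPM at 0.5 h, 2.97 and 2.68 CPM at 24 h and 0.293 and 0.465 CPM at 48 h. Rtp4, a chaperone gene for taste and opioid receptors that interferon induces, was 5.44 CPM with DMSO, 2.25 and 6.21 CPM at 0.5 h, 6.82 and 9.31 CPM at 24 h, and 0.732 and 2.98 CPM at 48 h. Sp100, of the nuclear bodies, went from 11.7 and 8.65 CPM at 0.5 h to 4.32 and 0.372 CPM at 48 h. Lgals3bp and Ifi35 had log2 fold changes of -0.11 ± 0.26 and -0.41 ± 0.45 SE from 24 to 48 h, with overlapping libraries.

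**Figure D3:**
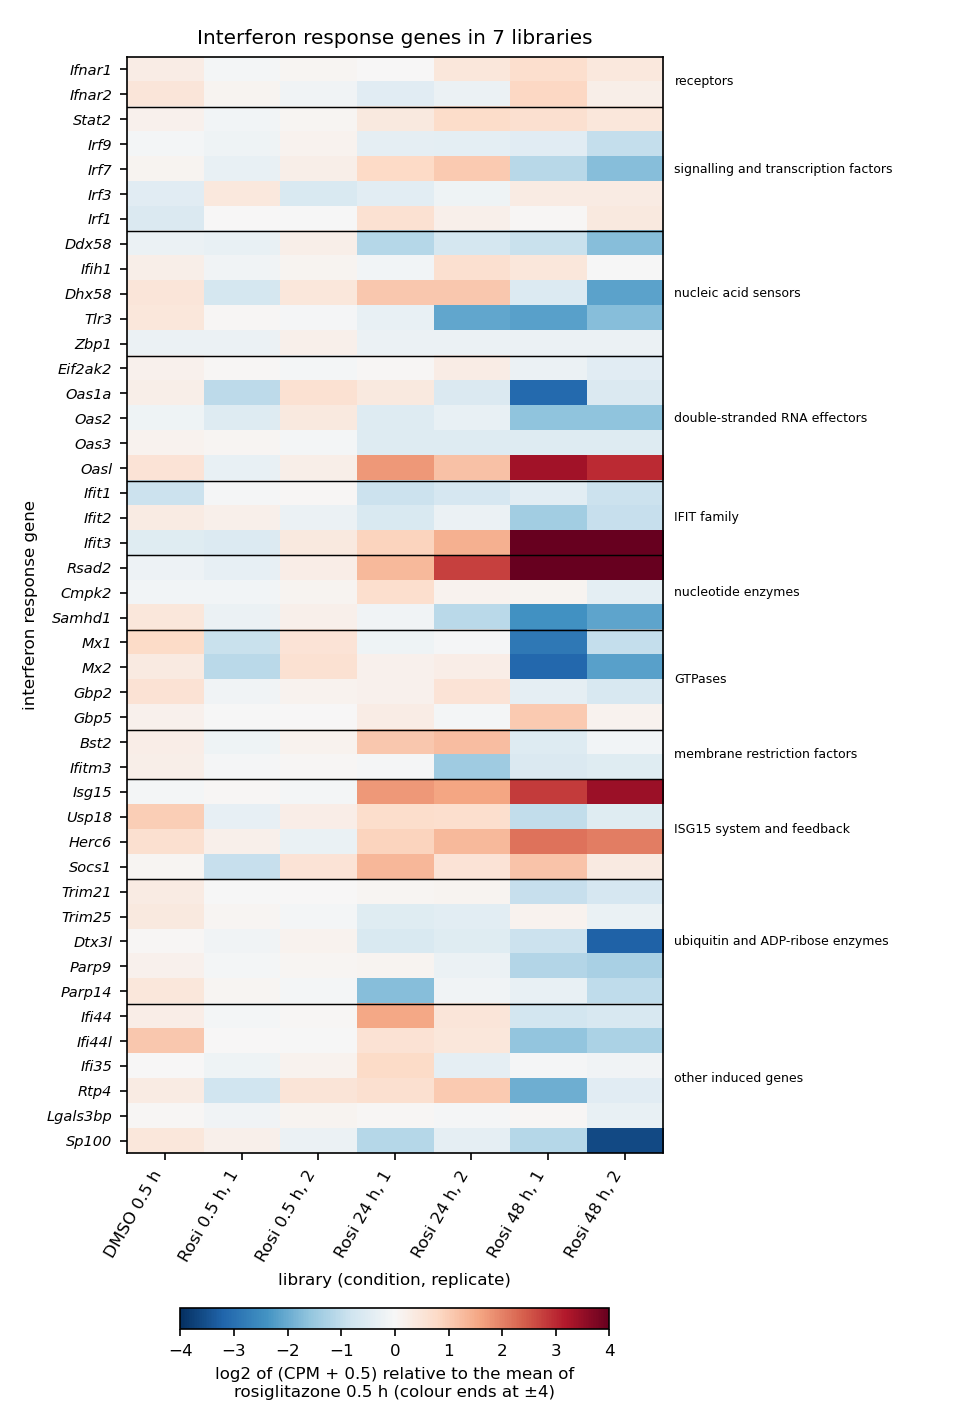
Level of the 44 members in the 7 libraries as the log2 of CPM plus 0.5, relative to the mean of the rosiglitazone 0.5 h libraries, grouped by role (colour ends at 4 in either direction). Oasl, Ifit3, Rsad2, Isg15 and Herc6 are the reddest rows at 48 h, beside blue rows such as Samhd1 and Mx2 in the same 2 libraries.

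From 0.5 to 24 h no member passed the test, beside 0.0511% of all genes tested called higher and 0.0447% called lower. Both 24 h libraries lay above both 0.5 h libraries for 17 of 42 members (40.5%, against 21.2% of all genes) and below both for 10 (23.8%, against 28.9%). At an unadjusted edgeR p under 0.05, 8 members were higher (Irf7, Oasl, Ifit3, Rsad2, Bst2, Isg15, Herc6 and Ifi44; background 6.55%) and none was lower (background 9.12%). The adjusted DESeq2 test called 4 members higher, or 9.52%, beside 2.63% of all genes, and 0 lower, beside 5.04%. Of the 8, Irf7, Bst2 and Ifi44 had a lower mean at 48 h than at 0.5 h, and Oasl, Ifit3, Rsad2, Isg15 and Herc6 had a higher mean at 48 h than at 24 h. By group mean over the rosiglitazone times, 15 of the 42 members were highest at 0.5 h, 18 at 24 h and 9 at 48 h.

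Over the whole course from 0.5 to 48 h, 10 members had both 48 h libraries above both 0.5 h libraries (23.8%, against 28.3% of all genes tested), a share near the background. For 21 members both 48 h libraries lay below (50.0%, against 34.4%). At an unadjusted edgeR p under 0.05 the counts were 5 higher (background 9.65%) and 10 lower (background 13.3%). The median log2 fold change was -0.58 beside -0.07 for all genes tested. The summed level of all members nevertheless was highest at 48 h, at 2453 and 1872 CPM against 1302 and 1419 CPM at 0.5 h, and without Rsad2 it was 1471 and 1325 CPM against 1298 and 1412 CPM.

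At 0.5 h rosiglitazone could be set against vehicle. No member passed the edgeR test in either direction and no gene did, a background of 0% both ways, and DESeq2 called 2 genes, none of them a member. At an unadjusted edgeR p under 0.05 no member was higher or lower, beside 0.109% and 0.498% of all genes tested. Both rosiglitazone libraries lay above the DMSO library for 3 members (7.14%, against 30.2% of all genes) and below it for 24 (57.1%, against 31.8%), with a median log2 fold change of -0.26 beside 0.01. With 1 DMSO library, its own spread is assumed to be that of the other groups. Without the first rosiglitazone library 17 members were above and 25 below the DMSO library, beside 48.2% and 49.4% of all genes. Without the second 4 were above and 38 below, beside 49.1% and 49.3%. Marker genes of 2 cell types had fold changes of opposite sign here, none past the test. All 9 cardiomyocyte markers had both rosiglitazone libraries above the DMSO library, with a summed level of 6670 CPM with DMSO against 11251 and 10685 CPM. All 12 of the macrophage markers tested had a negative fold change, and the summed level of the 13 measured was 1048 CPM with DMSO against 308 and 420 CPM with rosiglitazone. Cx3cr1 was at or near 0 throughout, and the part of these markers' cells in the members' levels was not tested.

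**Figure D4:**
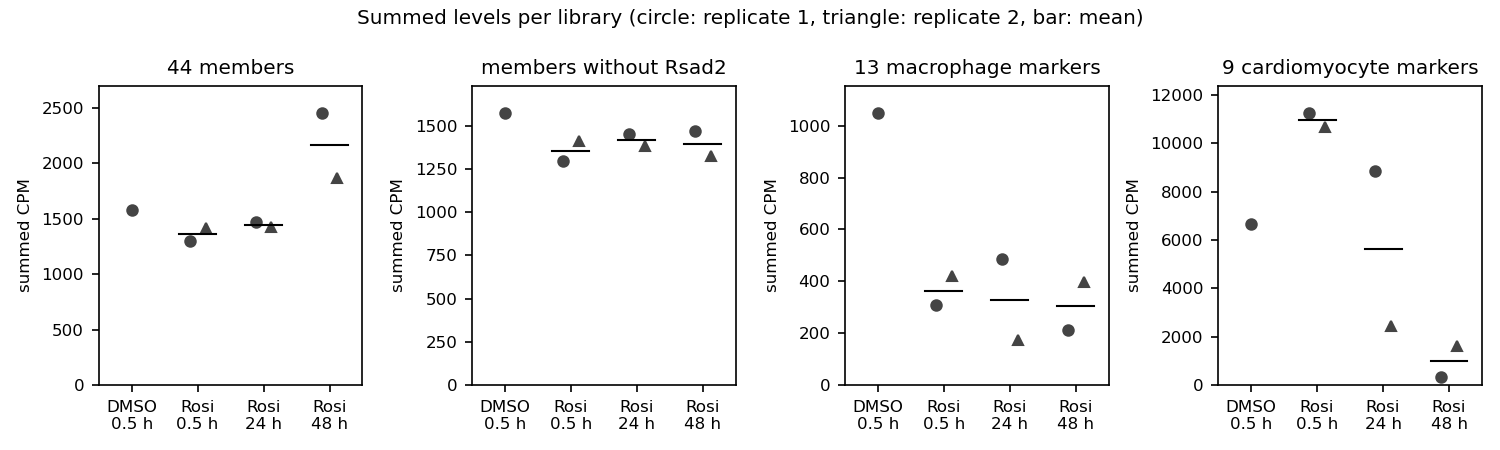
Summed CPM per library of the 44 members, of the members without Rsad2, of 13 macrophage markers and of 9 cardiomyocyte markers, each axis starting at 0; bars are means of 2 libraries. The members' sum is highest at 48 h only with Rsad2 included, the macrophage sum is highest with DMSO, and the cardiomyocyte sum is lowest at 48 h.

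Marker genes of cell types moved beside these values. Cardiomyocyte marker genes were abundant at 0.5 h, with a summed level of 11251 and 10685 CPM. They stood at 8858 and 2440 CPM at 24 h and at 348 and 1601 CPM at 48 h. From 0.5 to 48 h 7 of the 9 tested fell, among them Myh6 and Ryr2. Of all genes tested, 4.62% were called lower and 1.97% higher over that span. The 7 calls were all lost without the first 48 h library, and all but that of Ryr2 without either 0.5 h library. Fibroblast markers were abundant too, although the labels give over 98% myocytes. Their summed level was 31911 and 32919 CPM at 0.5 h, 20609 and 20329 CPM at 24 h, and 15293 and 20634 CPM at 48 h. Most of the sum at 0.5 h was Col1a1, at 26742 and 27691 CPM. Col1a1 stood at 12556 and 15006 CPM at 24 h and at 4750 and 10584 CPM at 48 h. The falling sum therefore does not describe the other fibroblast markers. Of the 7 fibroblast markers 3 had a positive and 4 a negative log2 fold change from 0.5 to 48 h, and Dcn, the gene of the matrix protein decorin, rose (log2 fold change 2.85 ± 0.41 SE, edgeR adjusted p = 0.0149). All 7 endothelial markers had both 48 h libraries below both 0.5 h libraries, beside 34.4% of all genes tested. Cdh5, Kdr and Tek fell, and the endothelial sums were 170 and 200 CPM at 0.5 h and 41.5 and 46.1 CPM at 48 h. Of the 12 macrophage markers tested 9 had a negative log2 fold change over that span, and Csf1r, C1qc and Ptprc fell. The sum of the 13 measured was 308 and 420 CPM at 0.5 h, 486 and 172 CPM at 24 h, and 211 and 396 CPM at 48 h. Without Lyz2, which had a positive fold change, it was 217 and 279 CPM at 0.5 h and 118 and 113 CPM at 48 h. None of these fibroblast, endothelial and macrophage calls passed without the first 48 h library or without either 0.5 h library. Calls over all genes were few in those fits too. Of the lymphocyte markers Cd3e, Ms4a1, Nkg7 and Klrb1 had 0 reads in every library, and Cd8a had 12 reads in each rosiglitazone library of 0.5 h and 0 in the others. Cd4 was read in every library, at 22.6 CPM with DMSO, 4.33 and 4.80 CPM at 0.5 h, 4.55 and 3.54 CPM at 24 h, and 0.952 and 1.86 CPM at 48 h. The cell type that the Cd4 reads came from was not tested. In bulk RNA, fewer cells of a type and less RNA per cell cannot be told apart, and the part of these shifts in the members' values was not tested. The second 48 h library was the shallowest, at 10886559 counts, and the deepest library held 28074620.

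Of the members, 6 pairs are direct neighbours in the RefSeq gene order of the GRCr8 assembly, and Rsad2 with Cmpk2 and Ifit2 with Ifit3 are those shown here for unlike values. Rsad2 and Cmpk2, the gene of a mitochondrial nucleotide kinase, are adjacent, with no protein-coding gene between them, yet Cmpk2 was read at 4.31 CPM with DMSO, 4.26 and 5.05 CPM at 0.5 h, 7.65 and 5.16 CPM at 24 h, and 5.09 and 3.44 CPM at 48 h. The libraries of Cmpk2 at 0.5 and 48 h overlapped (log2 fold change -0.12 ± 0.60 SE, edgeR adjusted p = 0.94). Ifit2 and Ifit3 are adjacent too, and from 24 to 48 h their log2 fold changes were -0.75 ± 0.31 and 3.66 ± 0.45 SE. Parp9, Dtx3l and Parp14 lie in a row, and all 3 had negative log2 fold changes from 0.5 to 48 h, of -1.27 ± 0.30, -1.74 ± 0.87 and -0.63 ± 0.52 SE.

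**Figure D5:**
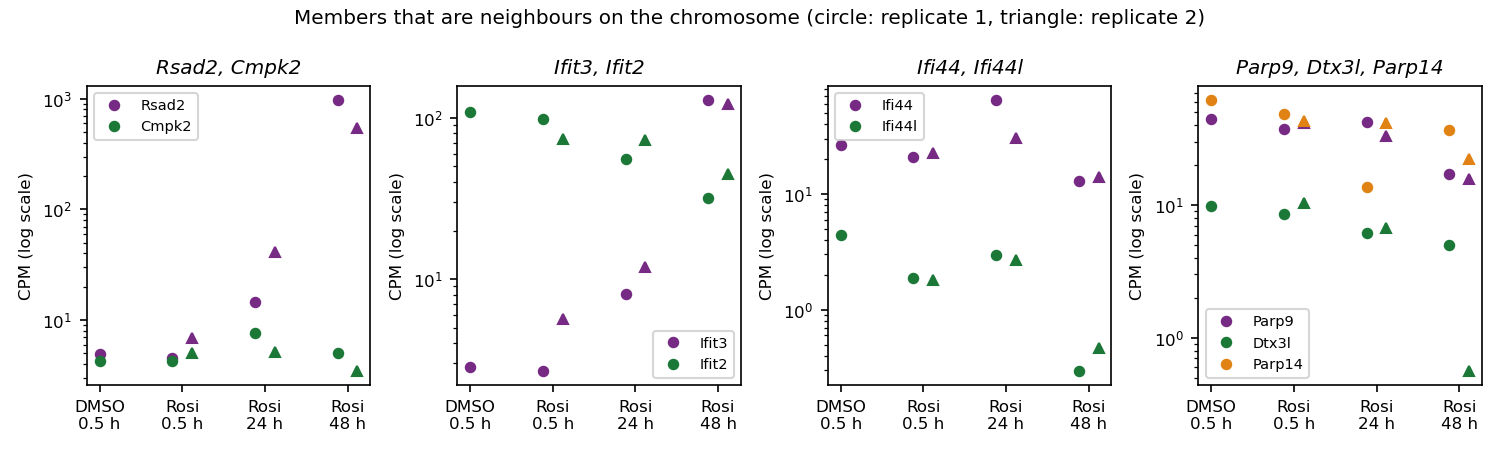
Level in CPM (log axis) of 4 groups of neighbouring members in each library. Rsad2 and Ifit3 are highest at 48 h while Cmpk2 stays between 3.44 and 7.65 CPM and Ifit2 is at its lowest; Ifi44 and Ifi44l are lower at 48 h than at 24 h, and Parp9 and Dtx3l are lowest at 48 h.

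Other genes of the pathway, from a list of 72 of which 68 were matched and 56 tested, gave few calls. From 0.5 to 48 h Jak2 and Cxcl10 rose and Slfn5 fell, and the others did not pass. Of all genes tested, 1.97% were called higher and 4.62% lower. Cxcl10, the gene of a chemokine that draws T cells, was read at 6.01 CPM with DMSO, 4.83 and 5.85 CPM at 0.5 h, 9.40 and 10.7 CPM at 24 h, and 190 and 112 CPM at 48 h, a course like those of Rsad2 and Ifit3 (log2 fold change 4.82 ± 0.39 SE, edgeR adjusted p = 0.0050). Jak2, which serves the interferon gamma receptor, was 176 and 186 CPM at 0.5 h, 139 and 217 CPM at 24 h, and 872 and 423 CPM at 48 h (1.84 ± 0.41 SE, adjusted p = 0.044). Slfn5 fell by 1.39 ± 0.32 SE on the log2 scale (adjusted p = 0.048). Cxcl10 still passed when any 1 library was left out, with edgeR adjusted p from 0.0002 to 0.0492. Jak2 and Slfn5 did not pass without the DMSO library, either 0.5 h library or the first 48 h library, and Slfn5 did not pass without the second 48 h library (adjusted p up to 0.28 for Jak2 and 0.25 for Slfn5).

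From 24 to 48 h none of the 56 passed. The smallest unadjusted p in that step belonged to Cxcl10 (log2 fold change 3.90 ± 0.38 SE, adjusted p = 0.16), followed in their own lists by Oasl2 (-1.35 ± 0.35 SE), Oas1b (-2.82 ± 0.76 SE), Plscr1 (2.86 ± 0.89 SE), Jak2 (1.86 ± 0.41 SE) and Irf5 (1.19 ± 0.39 SE). Among the adaptors and kinases below the sensors, Tmem173, the gene of STING, had a log2 fold change of -1.21 ± 0.73 SE, Mb21d1, the gene of the DNA sensor cGAS, 1.28 ± 0.83 SE, Ikbke -0.55 ± 0.72 SE and Myd88 0.23 ± 0.32 SE. Plscr1 was high in 1 library only, with 66.3 CPM in the first 48 h library against 7.72 CPM in the second. Oasl2, a relative of Oasl, was 29.9 and 26.8 CPM at 24 h and 11.1 and 11.2 CPM at 48 h, opposite to Oasl. Close relatives such as the Oas1 and Ifitm genes can share reads, and how the authors' counting treated such reads, or the strand, is not given in the sources used here.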

How the data were processed

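Libraries were strand-keeping and made from total RNA, per the labels' protocols. Tools named in the submitters' processing notes, without roles, are cutadapt 1.11, FastQC 0.11.5, DESeq2 and HTSeq, with the builds Rnor_6.0 and hg19; the aligner is not given in the sources used here. The authors deposited raw counts per gene, beside their own log2 fold changes, standard errors and adjusted p-values for 3 comparisons, and, per the file headers, the percent identity of each human homolog. Each table lists 33005 entries for 32545 genes, and each gene was used once.

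The 14 samples are 7 libraries in 2 splits each. The splits of a library agreed within sampling noise (chi-square over degrees of freedom of 0.963 to 1.02, lowest p of 0.112), were summed and were counted as 1 sample.

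Counts were tested with edgeR 4.0.16 in R 4.3.3 (TMM scaling, filterByExpr, robust quasi-likelihood fit of all 4 groups, 3 residual degrees of freedom), with Benjamini-Hochberg adjustment over 15655 genes and a threshold of 0.05. CPM is relative to the TMM-scaled library size, and folds are ratios of mean CPM. The fit was tested on simulated data. The alternatives were DESeq2 size factors, the DESeq2 1.42.0 test, no filter, a replicate block, a fit of only the groups compared, and leaving out each library. Named members are those past the threshold, the 12 largest increases and 8 largest decreases from 24 to 48 h, and the signalling chain; for other pathway genes, those past the threshold and up to 4 with the smallest p per list. The remaining members are given by role. The members and lists were chosen with earlier results of these data known. Some genes of the lists are not reported here.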

Additional observations from a re-analysis of the deposited data

How the results depend on the processing

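From 24 to 48 h edgeR called 0 genes, with 438 higher and 836 lower at an unadjusted p under 0.05. The DESeq2 test called 492 genes, 4 members higher and 5 lower (9.52% and 11.9%, beside 0.875% and 2.27% of all genes). The fit with no filter called 19 genes and 1 member higher (2.27%, beside 0.0432%). Leaving out a library gave 0 to 509 genes, 0 to 2 members higher and 0 to 3 lower, and a median of -0.72 to -0.37; the high counts came without the second 24 h library (2 and 3 of 42 members, beside 0.852% and 2.46% of all genes) and the lowest median without the first 48 h library. From 0.5 to 24 h, against 15 genes and 0 members, DESeq2 called 1200 genes and 4 members higher (9.52%, beside 2.63% of all genes). No filter gave 334 genes and 1 member higher (2.27%, beside 0.497%), and the groups compared alone gave 0 genes. Leaving out a library gave 0 to 1008 genes, 0 to 3 members higher, 0 to 2 lower, medians of 0.12 to 0.43 and 10 to 17 members wholly lower. The high counts came without a 24 h library, which leaves 1 library in that group. Without the first (1008 genes) 2 members were higher (4.76%, beside 2.03% of all genes). In the same fit 2 were lower (4.76%, beside 4.49%), a share near the background. Without the second (496 genes) 3 were higher (7.14%, beside 1.12%) and 0 lower (beside 2.11%). From 0.5 to 48 h, against 1031 genes, 5 members higher and 2 lower, DESeq2 called 2526 genes. Its 5 members higher were 11.9%, beside 5.43% of all genes, and its 7 members lower were 16.7%, beside 10.7%. No filter gave 4 members lower (9.09%, beside 4.85%). The groups compared alone gave 2733 genes and 5 members higher (11.9%, beside 7.62%). The same fit gave 6 members lower (14.3%, beside 12%), a share near the background. DESeq2 size factors gave 1 member lower (2.38%, beside 4.62%), as Mx2 had an edgeR adjusted p of 0.0501. Leaving out a library gave 12 to 2706 genes, 0 to 5 members higher and 0 to 5 lower. The 5 higher (11.9%) stood beside 6.75% of all genes without the first 24 h library and 6.19% without the second. Without the DMSO library they stood beside 1.92%. The count of 0 higher came without the first 48 h library, beside 0.0709%. The 5 lower (11.9%) came without the first or the second 24 h library, beside 10.7% and 11.4%, shares near the background. For rosiglitazone against DMSO, DESeq2 called 2 genes, no filter 1 and the groups compared alone 174; leaving out a library gave 3 to 17 members wholly higher, 24 to 38 wholly lower and 4 to 17 with a positive fold change, the extremes coming without a 0.5 h library. The cause of these shifts was not tested.

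Replicate numbers did not pair the libraries (correlations of the deviations -0.083, 0.062 and -0.122). With the replicate block edgeR called 1 gene from 0.5 to 24 h and 407 genes from 0.5 to 48 h. Over the latter span it called 4 of 42 members higher (9.52%, beside 0.549% of all genes) and 0 lower (beside 2.05%). The members Herc6, Mx2 and Parp9 and the pathway genes Jak2 (edgeR adjusted p = 0.10) and Slfn5 (0.11) no longer passed there. Leaving out the DMSO library leaves no value for the comparison with DMSO.

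The direction of these members from 24 to 48 h turned when 1 library was left out, with log2 fold changes of -0.39 to 0.051 for Irf1, -1.78 to 0.19 for Tlr3, -0.76 to 0.34 for Socs1, -0.48 to 1.09 for Parp14, -0.89 to 0.27 for Ifi35, -0.18 to 0.13 for Stat2, -0.41 to 0.34 for Ifih1, -0.52 to 0.88 for Ifitm3, -3.07 to 4.41 for Ifit1, -0.0043 to 0.93 for Gbp5, -0.89 to 0.022 for Ddx58 and -0.31 to 0.045 for Lgals3bp. Depth limits the scarce members, since 0 counts allow up to 0.279 CPM in the shallowest library.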

Other observations

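The members' proteins were less conserved than those of most genes. Per the percent identity to the human homolog in the authors' deposited annotation, the median was 66.4% over the 44 members, from 25.2% to 94.3%, beside 87.3% over 14082 of the 15655 genes tested that carry a value.

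The 2 rosiglitazone libraries of 0.5 h differed in a subset of members. Among 41 members with a mean of at least 1 CPM there, 6 were over 2-fold higher in the second library (Dhx58, Oas1a, Mx1, Mx2, Socs1 and Rtp4), or 14.6%, beside 1.2% of 12711 genes. Only Irf3 was over 2-fold higher in the first, or 2.44%, beside 2.24% of the same genes, a share near the background. The DMSO library had 12.4 CPM of Mx1 and 40.8 CPM of Mx2, nearer to the second rosiglitazone library (10.6 and 48.0 CPM) than to the first (3.59 and 14.7 CPM).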
